A study of Mus musculus with 4 samples.

Results

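MiRNAs numbered from 1000 to below 3000 are described here in the cortex of wild-type mice and of a mouse model of Alzheimer's disease. The members were the rows of the deposited miRNA table whose number after "miR-" lies from 1000 to below 3000, without miR-1188, miR-1193, miR-1197, miR-1224, miR-1306, miR-1839 and miR-1983, and the rule used no measured value. It gave 70 of 942 rows, which came from 47 hairpins. Of these rows, 26 were named as 5p arms, 23 as 3p arms and 21 carried no arm. The lowest member was miR-1186a and the highest miR-2137, and the nearest numbers in the table outside the range were 883 and 3057.

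Small RNA of the brain cortex was sequenced from 4 mice aged 9 months of strain B6C3. WT1 and WT2 were wild type, and APP3 and APP4 (AD mice) carried the APPswe and PS1deltaE9 transgenes, which are directed to neurons of the central nervous system. WT1 and APP4 were siblings (group 1), and so were WT2 and APP3 (group 2), so that each genotype was represented by 2 mice and each group held 1 mouse of each genotype. The sex of the mice was not given in the sources used here, and cortex tissue of a mouse mixes neurons, glia and vessels. A difference between libraries can come from fewer cells of a type or from less RNA per cell, and bulk libraries cannot tell these apart.

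The number of a miRNA follows the order in which it was named, and the first numbers went to miRNAs found by cloning, which are often abundant and shared by many animals. The range described here was largely filled as deep sequencing came into use, and it holds many miRNAs known from few reads. Some members, such as miR-1298, miR-1264, miR-1249, miR-1247 and miR-1251, also carry these names in human, so the range is not a list of miRNAs particular to rodents, and the table, which has mouse rows only, cannot test this. A hairpin precursor is cut into a 5p and a 3p arm, one of which usually accumulates, and the seed (bases 2 to 8) of the accumulated arm pairs with target mRNAs.

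The libraries held 26085776 (WT1), 22078713 (WT2), 21266937 (APP3) and 19048747 (APP4) reads on miRNAs. Levels are given as reads per 1000000 of this sum (RPM), so that 3 reads were worth between 0.115 and 0.157 RPM. MiRNA reads were 83.4% (WT1), 88.7% (WT2), 87.6% (APP3) and 83.4% (APP4) of the clean reads. In this share the siblings of a group were also alike. Where siblings lie together below, kinship and this difference between libraries cannot be told apart. The neuronal markers miR-124-3p, miR-9-5p, miR-128-3p, miR-138-5p and miR-132-3p summed to between 78050 and 85393 RPM, as the label of cortex asks. Of these, miR-138-5p and miR-132-3p were higher in both AD mice, while miR-124-3p, miR-9-5p and miR-128-3p overlapped between genotypes. Of microglia and leukocytes, miR-142-3p, miR-142-5p and miR-150-5p were higher in both AD mice, while miR-223-3p and miR-146a-5p overlapped. The erythroid miR-486-5p was lower in both AD mice. MiR-451a and miR-144-3p overlapped, as did miR-219-2-3p and miR-338-3p of oligodendrocytes. APP4 stood apart in the epithelial list (miR-200a-3p, miR-200b-3p, miR-200c-3p, miR-141-3p and miR-429-3p), all 5 of which had reads in every library and which summed to 1108 RPM there against 45.4 to 64.5 RPM in the other mice. The list of choroid plexus and ciliated cells summed to 3808 (WT1), 4693 (WT2), 3828 (APP3) and 3343 (APP4) RPM, most of it miR-204-5p. MiR-143-3p, a miRNA of vessel walls, lay at 23902 and 24328 RPM in the WT mice and at 20760 and 16628 RPM in the AD mice. MiR-145a-5p, also on the vessel list, was lower in both AD mice too, with 164 (WT1), 152 (WT2), 112 (APP3) and 150 (APP4) RPM. The endothelial miR-126-3p went the other way, from 797 and 849 RPM to 893 and 1058 RPM. The part of these cell types in the results was not tested.

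The mature sequences of the miRNAs that carried nearly all reads of the range are shown first, since the closeness of the miR-1843 arms decides how their reads can be counted. They are RefSeq sequences annotated on GRCm38.p6, written 5′ to 3′ with the seed in capitals. RefSeq gave a sequence for 53 of the 70 members.
miR-1843b-5p: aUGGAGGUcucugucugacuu
miR-1843a-5p: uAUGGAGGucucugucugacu
miR-1843b-3p: cCGAUCGUuccccuccauac
miR-1843a-3p: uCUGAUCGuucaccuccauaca
miR-1249-3p: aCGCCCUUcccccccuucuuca
miR-1198-5p: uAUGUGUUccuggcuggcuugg
miR-1298-5p: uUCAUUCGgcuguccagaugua
miR-1298-3p: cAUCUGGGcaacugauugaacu
miR-1264-3p: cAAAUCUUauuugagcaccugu
miR-1981-3p: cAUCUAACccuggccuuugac
miR-1981-5p: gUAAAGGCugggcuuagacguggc
miR-1247-5p: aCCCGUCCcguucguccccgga
miR-1964-3p: cCGACUUCugggcuccggcuuu

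The 5p arms of miR-1843a and miR-1843b were both 21 bases long and shared a run of 20 bases, which begins at base 2 of miR-1843a-5p and at base 1 of miR-1843b-5p. Their seeds are therefore shifted against each other by 1 base. The study's methods allow 2 mismatches and changed ends in counting but also state that none was allowed for miRBase. With either, reads with a changed end can match both arms and may be split between the rows in a way the table cannot show. The longest run shared by the 3p arms was only 9 bases. Aligned from base 2 of miR-1843a-3p, however, miR-1843b-3p differs from it at only 2 bases. With 2 mismatches and changed ends allowed, 3p reads can therefore match both rows, while without mismatches the 3p arms can be told apart.

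The 53 members with a sequence had 53 distinct seeds, so no pair of them shared a seed. Of these, 2 had the seed of a row outside the range. MiR-1943-5p had the seed of miR-149-3p, and miR-1961 had the seed of the let-7 family, a family that is abundant in the brain. MiR-1961 is shown beside let-7g-5p because 13 bases at the 5′ end are the same in both.
miR-1961: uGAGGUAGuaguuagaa
let-7g-5p: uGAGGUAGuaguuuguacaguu
MiR-1961 is only 17 bases long and had 0 (WT1), 1 (WT2), 0 (APP3) and 2 (APP4) reads. The length of the members had a median of 22 bases and ran from 17 to 25. Their median GC content was 57.1%, beside 47.6% for the rows numbered below 1000 and 52.4% for those numbered 3000 and above.

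GENCODE (vM21, GRCm38) held 41 of the 47 hairpins under their names. Of these, 30 (73.2%) lay in a protein-coding gene on the same strand, beside 153 of 355 found hairpins (43.1%) with numbers below 1000 and 74 of 107 (69.2%) with numbers of 3000 and above. Of the 33 that lay in any gene on the same strand, each assigned to a single gene, 27 were intronic and 6 touched an exon. Mir-1930 and mir-1949, counted as intronic, also touch an exon of another gene on the same strand. A further 3 lay only in a gene of the other strand, 5 lay in no gene, and 6 of the 41 were on chromosome X.

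Together, the 70 miRNAs held few of the reads. Their share of the miRNA reads in the WT mice was 0.343% (WT1, 95% Wilson bounds 0.341 and 0.345) and 0.315% (WT2, bounds 0.312 and 0.317). The AD mice had 0.359% (APP3, bounds 0.357 and 0.362) and 0.316% (APP4, bounds 0.314 and 0.319). These bounds cover counting error only. The genotypes overlapped, with WT1 above APP4 and WT2 lowest. A typical member was also low, with a median level of 0.244 RPM over the 4 libraries, beside 10.4 RPM for 681 rows numbered below 1000 and 0.194 RPM for 179 rows numbered 3000 and above. A mean of at least 1 RPM was reached by 23 of the 70 members (32.9%), beside 69.3% and 27.9% of those other rows. In level, the range therefore lay close to the later numbers and far under the earlier ones.

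**Figure D1:**
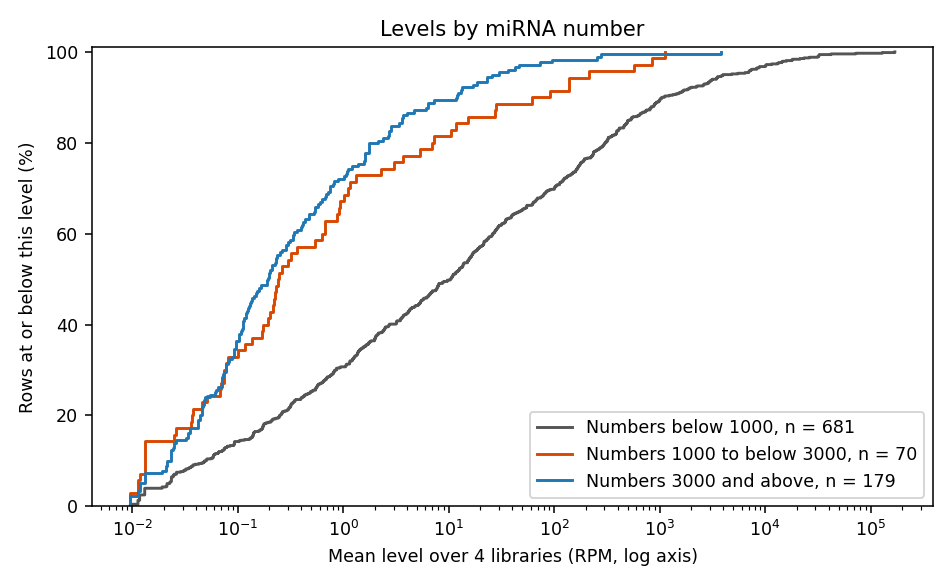
Cumulative share of rows (%) against their mean level over the 4 libraries (RPM, log axis) for numbers below 1000 (n = 681), 1000 to below 3000 (n = 70) and 3000 and above (n = 179). The curve of the 70 miRNAs runs near that of the highest numbers, with medians of 0.244 and 0.194 RPM, and far to the left of the lowest numbers, with a median of 10.4 RPM.

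A small number of members made up the total. The 3 miRNAs with the most reads held between 73.5% and 78.6% of the reads of all members, the first 7 between 93.7% and 94.7%, and the first 12 between 98.3% and 98.6%. A mean of at least 10 RPM was reached by 13 members and one of at least 100 RPM by 6. Even the leading member, miR-1843b-5p, ranked only 68 among the 942 rows. The numbered blocks differed in the same way. The 4 rows of the block from 1800, all of them arms of miR-1843, held 64.0% to 70.5% of the members' reads, and the 12 rows from miR-1231 to miR-1298 held 20.5% to 27.7%. The 9 rows from miR-1186 to miR-1199 held 4.07% to 4.98%, and the 44 rows from miR-1912 to miR-1982 held 3.39% to 4.01%. MiR-2137 was the single row with a higher number, with 8 reads at most.

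**Figure D2:**
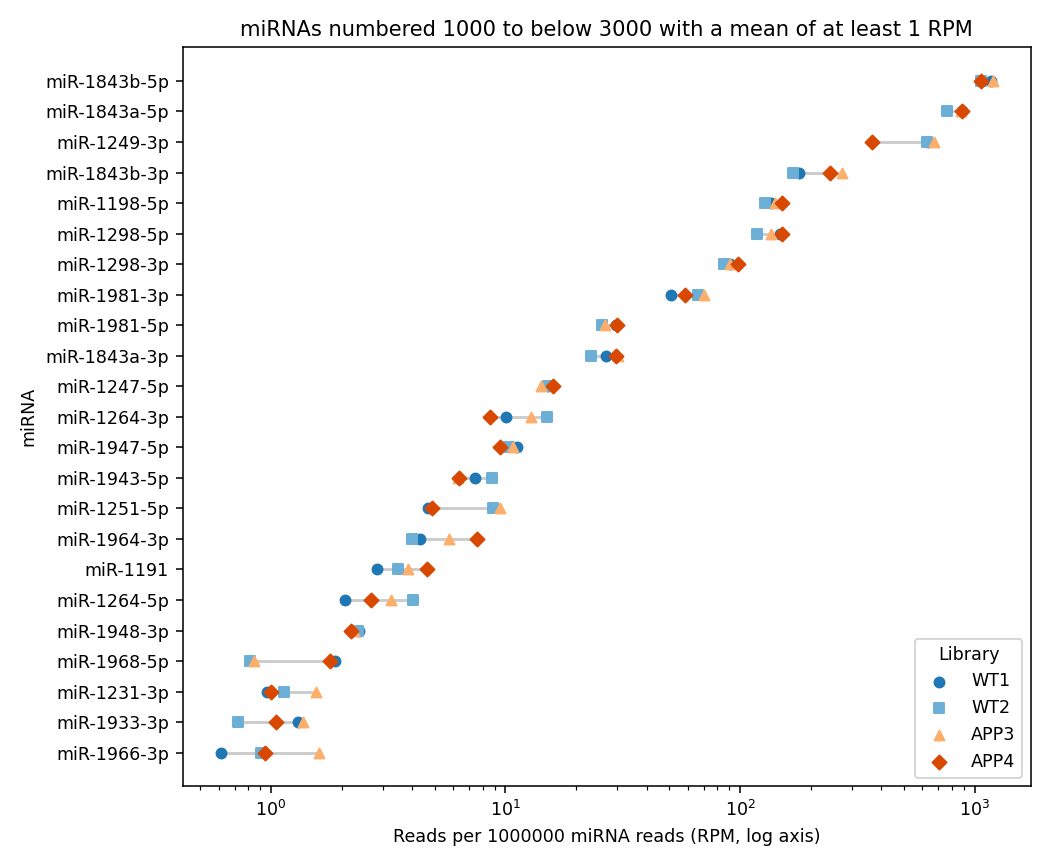
Level in each of the 4 libraries (RPM, log axis) of the 23 members with a mean of at least 1 RPM, in the order of their means, with 1 symbol per library and a grey line from the lowest to the highest. The levels span from under 1 RPM to 1194 RPM, and miR-1249-3p in APP4 lies to the left of the other libraries.

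The hairpins of miR-1843 carried the largest part of these reads. Mir1843b lies at chr1:159340358-159340423 on the plus strand, in an intron of Cop1, which encodes a ubiquitin ligase. Mir1843a lies at chr12:80391613-80391677 on the minus strand, in an intron of Dcaf5, which encodes a substrate receptor of cullin ubiquitin ligases. Both hairpins overlap annotated small Cajal body RNAs (scaRNAs), a class of RNA that guides the modification of spliceosomal RNAs. Mir1843a lies wholly within Scarna3b, and Mir1843b ends 1 base past the end of Scarna3a. Among all hairpins of the table that GENCODE named, 6 overlapped a scaRNA or a small nucleolar RNA, and 2 of these were members. Whether fragments of these longer RNAs were counted in the rows of miR-1843 was not tested.

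MiR-1843b-5p was measured at 1178 (WT1), 1065 (WT2), 1194 (APP3) and 1071 (APP4) RPM. MiR-1843a-5p was measured at 883 (WT1), 760 (WT2), 879 (APP3) and 887 (APP4) RPM. For both 5p arms the genotypes overlapped, and the highest library was 1.12 and 1.17 times the lowest. Since reads may move between these rows, their sum is the safer value, and it was 2061 (WT1), 1825 (WT2), 2072 (APP3) and 1958 (APP4) RPM, again with overlap.

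The 3p arm of miR-1843b behaved otherwise. It was measured at 179 (WT1) and 169 (WT2) RPM in the WT mice and at 273 (APP3) and 243 (APP4) RPM in the AD mice. Both AD mice thus lay above both WT mice, with means of 174 ± 7.05 (SD, n = 2) and 258 ± 21.5 RPM (SD, n = 2). In group 2 the log2 fold change of APP3 against WT2 was 0.69 ± 0.03 (counting SE) and passed both limits of Fisher's exact test (FDR 4.57e-118, more than 1.5-fold). In group 1 the log2 fold change of APP4 against WT1 was 0.44 ± 0.03 (counting SE, FDR 7.02e-48 by Fisher's exact test), which is under 1.5-fold. Library sizes corrected by TMM lowered the value of group 1 to 0.19 and left 0.68 in group 2. Over the 4 mice edgeR gave a log2 fold change of 0.44 ± 0.21 (SE), which did not pass after adjustment (adjusted p = 0.832). The study lists this miRNA as altered in group 2 only. By its qRT-PCR in more mice, few miRNAs altered in a single group followed the sequencing, and miR-1843b-3p is not among those it names.

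The share of the 3p arm within the reads of its own hairpin does not depend on how libraries are scaled. For mir-1843b in the WT mice it was 13.2% (WT1, 35394 reads, 95% Wilson bounds 12.8 and 13.5) and 13.7% (WT2, 27234 reads, bounds 13.3 and 14.1). In the AD mice it was 18.6% (APP3, 31191 reads, bounds 18.2 and 19.05) and 18.5% (APP4, 25015 reads, bounds 17.99 and 18.95). The WT mice averaged 13.4 ± 0.36% and the AD mice 18.5 ± 0.10% (SD, n = 2 each), a difference of 5.12 percentage points that was larger than the spread within either genotype. With 2 mice per genotype an exact permutation test (two-sided) gave p = 0.333, the smallest value this design allows. Every hairpin whose shares do not overlap between the genotypes reaches this value, so the test cannot decide about mir-1843b. Set against the 5p reads of both miR-1843 hairpins, to allow for reads split between the 5p rows, miR-1843b-3p had 8.67 (WT1), 9.25 (WT2), 13.2 (APP3) and 12.4 (APP4) reads per 100 reads. This ratio was chosen after the values had been seen, and it does not allow for reads split between the 3p rows. The 3p rows of both miR-1843 hairpins summed to 206 (WT1), 192 (WT2), 303 (APP3) and 272 (APP4) RPM.

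MiR-1843a-3p, the minor arm of the other hairpin, was measured at 26.9 (WT1), 23.1 (WT2), 30.1 (APP3) and 29.6 (APP4) RPM. Both AD mice lay above both WT mice, though with TMM library sizes the genotypes overlapped. Its share of the hairpin was 2.96% (WT1), 2.95% (WT2), 3.32% (APP3) and 3.22% (APP4), and the Wilson intervals of the WT and AD mice overlapped. The log2 fold change over the 4 mice was 0.12 ± 0.22 (SE, edgeR, adjusted p = 0.972).

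Among member hairpins, 9 of the 23 with both arms in the table had at least 100 reads in each library, and of these 6 were mainly 5p and 3 mainly 3p. Mir-1843a and mir-1843b were the 2 of 9 whose arm shares did not overlap between the genotypes, beside 27.6% of all 228 hairpins of this depth, so the count for the members is near that of the table. A difference of the means as large as that of mir-1843b was found in 15 of the 228 hairpins. Arm shares of the other 7 member hairpins of this depth overlapped. Mir-1298 gave both arms in near amounts, with 37.8% (WT1), 42.0% (WT2), 40.1% (APP3) and 39.3% (APP4) of its reads on the 3p arm. Mir-1981 gave 63.1% (WT1), 72.0% (WT2), 72.6% (APP3) and 65.9% (APP4) on the 3p arm, so that siblings of unlike genotype lay closer together than mice of one genotype. Mir-1264 had 76.3% to 82.9% on the 3p arm, and mir-1943 had 2.52% to 6.29%. Mir-1198 and mir-1247 gave 2.27% or less on the 3p arm in every library, and the 3p arm of mir-1249 held all reads but 2.

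**Figure D3:**
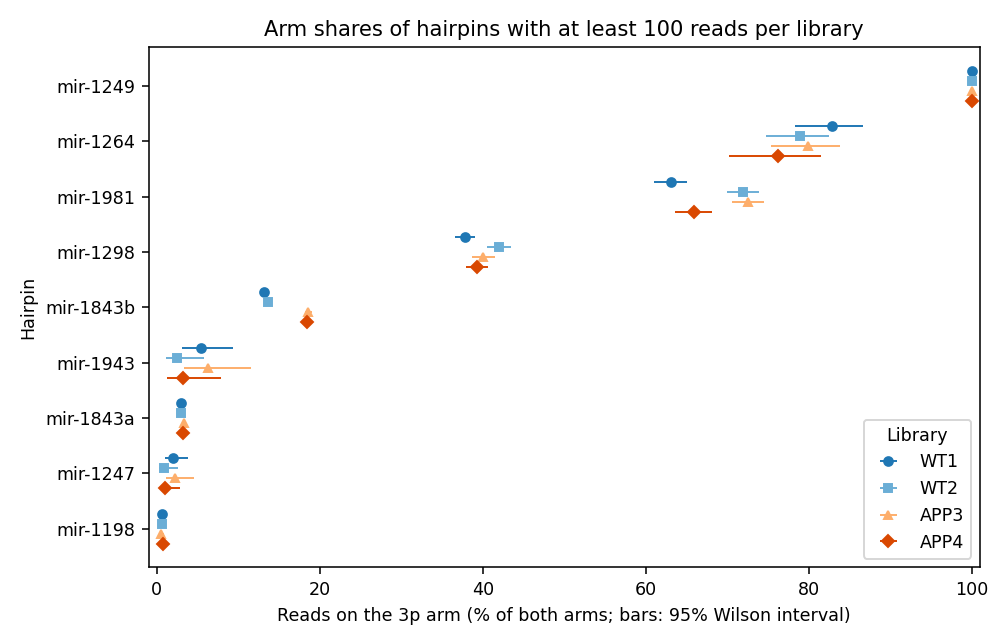
Reads on the 3p arm as a percentage of the reads of both arms, for the 9 member hairpins with at least 100 reads in each library, with 1 symbol per library and bars for the 95% Wilson interval. For mir-1843b the WT mice sit at 13.2% and 13.7% and the AD mice at 18.6% and 18.5%, while most other hairpins overlap between genotypes.

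MiR-1249-3p was the third miRNA of the range by reads. Its hairpin lies at chr15:84951526-84951623 on the minus strand and touches an exon of 5031439G07Rik, a protein-coding gene. It was measured at 635 (WT1), 625 (WT2) and 669 (APP3) RPM but at 366 RPM in APP4, so that 3 libraries lay close together and APP4 lay far under them. The log2 fold change of APP4 against WT1 was -0.80 ± 0.02 (counting SE) and was called as lower by Fisher's exact test. In the other sibling pair APP3 against WT2 gave 0.10 ± 0.02 (FDR 5.19e-08), below 1.5-fold and of the opposite sign. APP4 was also lower than APP3, a mouse of the same genotype, by -0.87 ± 0.02 on the log2 scale. Over the 4 mice edgeR gave -0.40 ± 0.32 (SE, adjusted p = 0.958), and 0.0032 when APP4 was left out. The low value was thus found in a single AD mouse. The epithelial markers stood apart in the same mouse, and a link between them and miR-1249-3p was not tested. The study lists miR-1249-3p for this sibling pair only, and does not name it among the few such miRNAs whose qRT-PCR followed the sequencing. MiR-1249-5p had 2 reads in APP4 and none elsewhere, where a count of 0 allows up to 0.115 to 0.141 RPM.

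MiR-1247 and miR-1251 come from non-coding genes. The hairpin of miR-1247 lies at chr12:110278048-110278129 on the minus strand in an exon of Dio3os, a non-coding RNA antisense to the gene of an imprinted deiodinase. MiR-1247-5p was among the steadiest members, with 15.2 (WT1), 15.2 (WT2), 14.2 (APP3) and 15.9 (APP4) RPM. MiR-1247-3p had 3 to 8 reads. The hairpin of miR-1251 lies at chr10:92137140-92137223 on the minus strand in an intron of Rmst, a non-coding RNA of the developing nervous system.

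MiR-1251-5p was measured at 4.68 (WT1), 8.83 (WT2), 9.50 (APP3) and 4.88 (APP4) RPM. The sibling pairs lay together and the mice of one genotype lay apart. The pairs also differed in the share of clean reads on miRNAs, which cannot be told apart from kinship here. WT2 was higher than WT1 by 0.91 ± 0.17 on the log2 scale (counting SE, FDR 1.08e-07 by Fisher's exact test), and APP4 was lower than APP3 by -0.96 ± 0.18 (FDR 2.07e-07). Within the sibling pairs the log2 fold changes were 0.06 ± 0.20 and 0.10 ± 0.14, and neither was called. MiR-1251-3p had no more than 2 reads.

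Several members lie in introns of Htr2c, the gene of a serotonin receptor that is expressed in neurons and strongly in the choroid plexus. Mir1912 (chrX:147009441-147009527), Mir1264 (chrX:147010601-147010686) and Mir1298 (chrX:147064905-147065002) lie there on the plus strand. Mir1264 begins 1.16 kb and Mir1298 55.5 kb past the start of Mir1912. The table had no row for miR-1911. Together the 6 rows of these hairpins were measured at 251 (WT1), 223 (WT2), 243 (APP3) and 261 (APP4) RPM, and the genotypes overlapped.

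The hairpins of this gene differed by more than 100-fold in level. Mir-1298 reached 203 to 249 RPM over both arms, mir-1264 11.3 to 19.1 RPM and mir-1912 0.422 to 0.997 RPM. MiR-1298-5p was measured at 148 (WT1), 118 (WT2), 136 (APP3) and 151 (APP4) RPM. MiR-1298-3p was measured at 90.3 (WT1), 85.1 (WT2), 90.7 (APP3) and 97.8 (APP4) RPM, where both AD mice lay above both WT mice by a margin of under 1 RPM that was lost with TMM library sizes.

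MiR-1264 did not follow miR-1298 across the libraries. MiR-1264-3p was measured at 10.01 (WT1), 15.1 (WT2), 12.9 (APP3) and 8.61 (APP4) RPM, so that WT2 was high and APP4 low. Between the WT mice it was higher in WT2 by 0.59 ± 0.12 on the log2 scale (counting SE, FDR 2.67e-06 by Fisher's exact test), a call that was lost with TMM. MiR-1264-5p had 2.07 (WT1), 4.03 (WT2), 3.24 (APP3) and 2.68 (APP4) RPM and was also called higher in WT2 (0.96 ± 0.25, FDR 0.00033). MiR-1912-3p rested on 10 to 18 reads and was measured at 0.383 (WT1), 0.589 (WT2), 0.752 (APP3) and 0.945 (APP4) RPM. Both AD mice lay above both WT mice, and edgeR gave a log2 fold change of 0.67 ± 0.43 (SE, adjusted p = 0.929). MiR-1912-5p had 2 reads at most. Outside the range, miR-448-3p and miR-764-3p of the same gene lay between 17.9 and 26.2 RPM. Of the 5 markers of choroid plexus and ciliated cells, miR-204-5p was highest in WT2, as miR-1264 was, miR-211-5p, miR-449a-5p and miR-34b-5p were highest in APP3, and miR-34c-5p was highest in APP4.

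MiR-1198 and miR-1981 are intronic. The hairpin of miR-1198 lies at chrX:7807101-7807221 on the plus strand in Gripap1, which encodes an endosomal protein tied to glutamate receptor traffic. MiR-1198-5p was measured at 136 (WT1), 127 (WT2), 141 (APP3) and 151 (APP4) RPM, higher in both AD mice than in both WT mice. The log2 fold changes were 0.15 ± 0.04 in group 1 and 0.15 ± 0.04 in group 2 (counting SE), both far under 1.5-fold, and with TMM the genotypes overlapped. Its 3p arm had 17 to 25 reads.

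The hairpin of miR-1981 lies at chr1:184822407-184822488 on the minus strand in Marc2, which encodes a mitochondrial reductase. MiR-1981-3p was measured at 50.7 (WT1), 66.3 (WT2), 70.1 (APP3) and 58.0 (APP4) RPM. MiR-1981-5p had 29.7 (WT1), 25.8 (WT2), 26.5 (APP3) and 30.0 (APP4) RPM. The arms went opposite ways, since WT2 and APP3 were high for the 3p arm and low for the 5p arm, and both arms overlapped between genotypes.

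Among members of lower level, miR-1964-3p came from an intron of the zinc finger gene Zfp84 (chr7:29773294-29773376, plus strand). It was measured at 4.33 (WT1), 3.99 (WT2), 5.74 (APP3) and 7.56 (APP4) RPM, with both AD mice above both WT mice, also with TMM. APP4 was higher than WT1 by 0.80 ± 0.18 on the log2 scale (counting SE, FDR 3.22e-05 by Fisher's exact test), and APP3 was above WT2 by 0.52 ± 0.20 (FDR 0.0315), which is under 1.5-fold. With TMM the value of group 1 was 0.55 and was no longer called. EdgeR gave 0.53 ± 0.23 (SE, adjusted p = 0.768). The study's qRT-PCR gave a smaller rise for miR-1964-3p than its sequencing of the 4 mice. The 5p arm had 3 reads in each of WT1 and APP4 and none in WT2 and APP3.

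MiR-1191 (chr7:27205536-27205655, plus strand, touching an exon of BC024978) was measured at 2.84 (WT1), 3.49 (WT2), 3.86 (APP3) and 4.62 (APP4) RPM. Both AD mice lay above both WT mice, and APP4 was higher than WT1 by 0.70 ± 0.23 on the log2 scale (FDR 0.00698 by Fisher's exact test). This call was lost with TMM (0.45), and group 2 gave only 0.14 ± 0.23. MiR-1943-5p, from an intron of Tmem184b (chr15:79375228-79375300, minus strand), went the other way, with 7.40 (WT1), 8.74 (WT2), 6.30 (APP3) and 6.35 (APP4) RPM. Its log2 fold changes were -0.22 ± 0.17 in group 1 and -0.47 ± 0.16 in group 2, neither of which was called, and -0.48 ± 0.20 by edgeR (SE, adjusted p = 0.768). The other members of this kind rested on fewer reads. MiR-1966-3p was measured at 0.613 (WT1), 0.906 (WT2), 1.60 (APP3) and 0.945 (APP4) RPM, and miR-1948-3p at 2.38 (WT1), 2.36 (WT2), 2.26 (APP3) and 2.205 (APP4) RPM. For both, the margin between genotypes was smaller than the worth of 3 reads, and for miR-1966-3p the genotypes overlapped with TMM.

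In all, 9 of the 23 members with a mean of at least 1 RPM had both AD mice on one side of both WT mice, 7 of them higher and 2 lower. This is 39.1%, beside 35.4% of the 554 rows of this level (27.1% higher and 8.3% lower), so the share of members was near that of the table. The 7 were miR-1966-3p, miR-1964-3p, miR-1843b-3p, miR-1843a-3p, miR-1298-3p, miR-1198-5p and miR-1191, and the 2 were miR-1948-3p and miR-1943-5p. With TMM library sizes the count was 6, with miR-1964-3p, miR-1843b-3p and miR-1191 higher and miR-1948-3p, miR-1943-5p and miR-1247-5p lower, beside 33.2% of all rows. The split over all rows then turned from 150 higher and 46 lower to 78 higher and 106 lower.

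The sibling pairs were compared by Fisher's exact test on the raw counts of 2 libraries, with the limits the study names for the FDR (under 0.05) and for the fold (1.5 or more). The study applied them to counts normalised to the total, and with counts scaled to 1000000 reads and rounded fewer rows were called, 32 of 623 in group 1 and 23 of 625 in group 2, among them 1 member each (miR-1249-3p and miR-1843b-3p). The test compares libraries and not genotypes, since each side is 1 mouse. In group 1, 5 of 67 members tested (7.46%) were called, 4 higher and 1 lower in APP4, beside 11.6% of all 899 rows tested (9.68% higher and 1.89% lower). The members called were miR-1964-3p, miR-1191, miR-1196-5p, miR-1948-5p and miR-1249-3p, of which the last was lower. The median log2 fold change of the members was 0.21, equal to the 0.21 of all rows. TMM moved every log2 fold change of this pair by -0.25, after which 2 members (miR-1196-5p higher, miR-1249-3p lower) were called and the calls over all rows turned from 87 higher and 17 lower to 39 higher and 46 lower.

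In group 2, 2 of 61 members (3.28%) were called, miR-1843b-3p as higher and miR-1941-3p as lower in APP3, beside 6.81% of all 896 rows tested (3.35% higher and 3.46% lower). The median log2 fold change of the members was 0.16, beside 0.05 for all rows. TMM moved the values by only -0.02 and changed neither call. None of the members was called in both groups, while of all rows 15 were called in both groups with 1 direction and 9 with opposite directions.

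The comparisons within a genotype gave as many calls. Between the WT mice 5 of 59 members were called in WT2 against WT1 (8.47%, beside 10.1% of all 879 rows tested, 7.62% higher and 2.5% lower), with miR-1264-5p, miR-1264-3p, miR-1251-5p and miR-1196-5p higher and miR-1968-5p lower. Between the AD mice 4 of 66 members were called in APP4 against APP3 (6.06%, beside 8.05% of all 907 rows tested, 5.07% higher and 2.98% lower), with miR-1969 and miR-1968-5p higher and miR-1251-5p and miR-1249-3p lower. TMM moved the log2 fold changes by -0.11 between the WT mice, where 3 members then remained called (miR-1264-5p, miR-1251-5p and miR-1968-5p) and the calls over all rows went from 67 higher and 22 lower to 40 and 37. It moved those between the AD mice by -0.13, where miR-1968-5p lost its call, miR-1264-3p was called as lower, and the calls over all rows turned from 46 higher and 27 lower to 29 and 42. Without TMM, the share of members called in each of the 4 comparisons was under that of the whole table, which holds more rows of high level. Among rows with a mean of 1 RPM or more, the 23 members had 13.0% called in group 1 (all 554 rows 15.0%), 4.35% in group 2 (9.57%), 17.4% in WT2 against WT1 (13.4%) and 13.0% in APP4 against APP3 (10.5%), and so lay on either side of the table.

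Several of these calls rested on few reads, and these miRNAs are named after their values had been seen. MiR-1196-5p had 5 (WT1), 15 (WT2), 10 (APP3) and 16 (APP4) reads, and miR-1948-5p had 3, 5, 6 and 11 reads in the same order. MiR-1941-3p had 16 (WT1), 24 (WT2), 7 (APP3) and 9 (APP4) reads, fewer in both AD mice. MiR-1968-5p had 49 (WT1), 18 (WT2), 18 (APP3) and 34 (APP4) reads, so that the siblings of group 1 were high and those of group 2 low. MiR-1969 had 8, 4, 0 and 7 reads in that order, and its call between the AD mice turned on the library with no read.

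**Figure D4:**
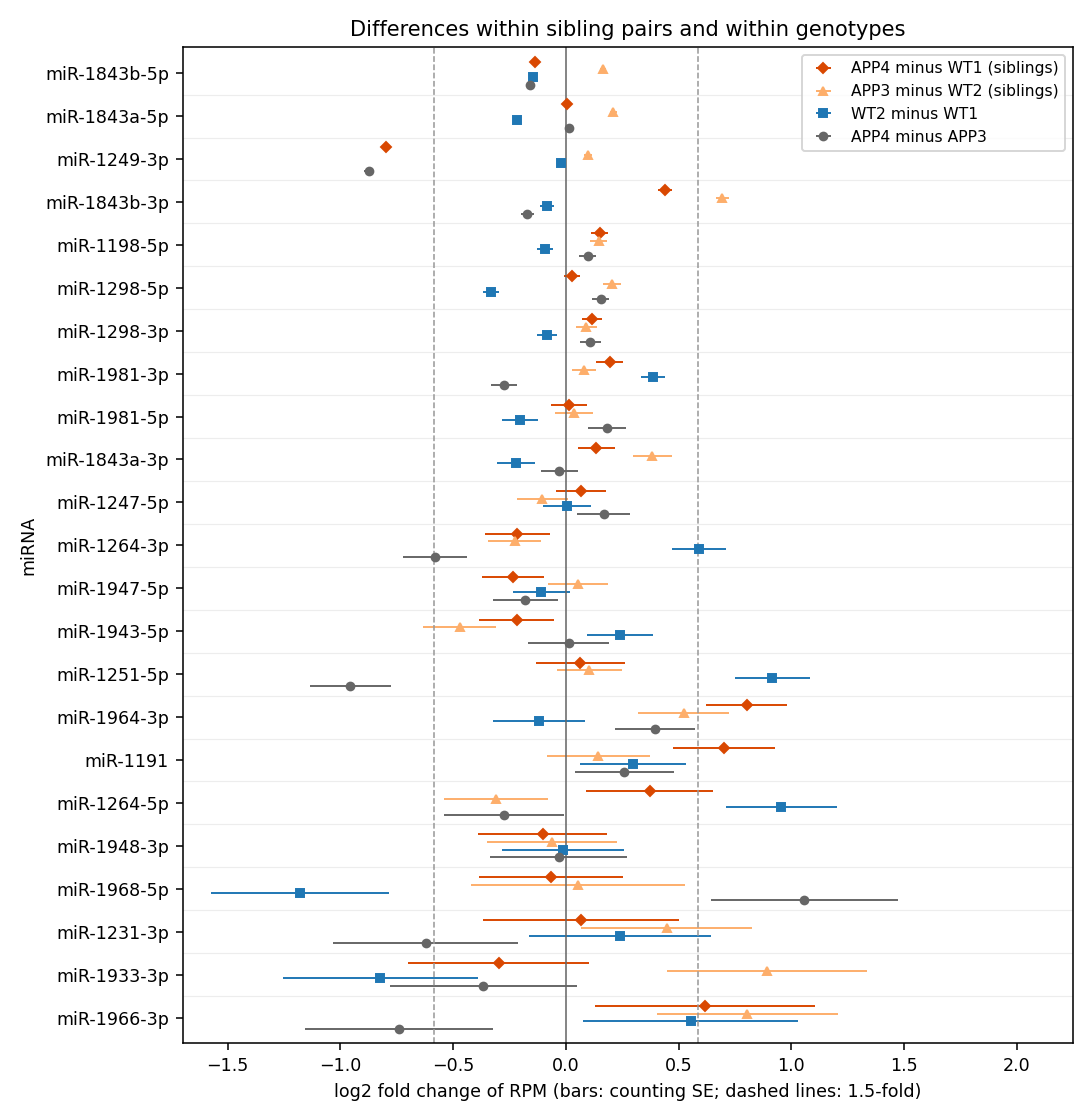
Log2 fold change of RPM, with counting SE as bars, for the 23 members with a mean of at least 1 RPM in both sibling pairs and in both pairs of 1 genotype, with dashed lines at 1.5-fold. MiR-1843b-3p lies at 0.44 and 0.69 in the sibling pairs, miR-1249-3p at -0.80 in group 1 only and -0.87 between the AD mice, and miR-1251-5p at 0.91 and -0.96 within the genotypes.

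Over the 4 mice, edgeR tested 30 of the 70 members, those that passed a filter on low counts. The 40 that did not pass had 11 reads or fewer in every library. No member was called, nor was any of the 623 rows tested (0.0%) at an adjusted p under 0.05. At an unadjusted p under 0.05 there were 2 members, miR-1943-5p and miR-1941-3p (log2 fold change -1.20 ± 0.49 SE), beside 36 rows in all (5.78%), and both had an adjusted p of 0.768 by edgeR. DESeq2 also called 0 members, with 1 at an unadjusted p under 0.05. The biological coefficient of variation between mice was 24.0%, which is far above the counting error of the leading members.

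The leading members varied little between the 4 mice. Among the 13 members averaging 10 RPM or more, the highest library was 1.12 to 1.83 times the lowest with a median of 1.18, beside a median of 1.39 for all 379 rows of this level. The largest ratios belonged to miR-1249-3p (1.83), miR-1264-3p (1.75) and miR-1843b-3p (1.62). Of these, miR-1843b-3p was the one with both AD mice above both WT mice.

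The remaining members were near the limit of detection. Under a mean of 1 RPM lay 47 members, which together summed to 225 (WT1), 189 (WT2), 210 (APP3) and 229 (APP4) reads. Every member had at least 1 read in some library, 47 of the 70 had reads in all 4, and 11 had reads in 1 library only. In 16 members no library reached 3 reads.

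Members with at least 1 read numbered 54 (WT1), 53 (WT2), 55 (APP3) and 65 (APP4), although APP4 was the library with the fewest reads. At the depth of APP4 the other libraries would be expected to show 52.5 (WT1), 52.2 (WT2) and 54.5 (APP3). The excess lay in miRNAs of 1 or 2 reads, since with at least 3 reads the counts were 48 (WT1), 43 (WT2), 48 (APP3) and 49 (APP4). Of the 11 members seen in 1 library only, 6 were seen in APP4, 2 each in WT1 and WT2, and 1 in APP3. Rows numbered below 1000 ranged from 618 to 631 with a read, and those numbered 3000 and above from 149 to 151. At the depth of APP4 the other libraries would be expected to show 609 to 627 and 141 to 148 of these rows, beside 628 and 150 in APP4, so APP4 was highest in each block and by the widest margin among the members. Whether the low counts are miRNAs or other RNA fragments that match them was not tested.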

How the data were processed

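Small RNA of the cortex of 4 mice was sequenced. Clean reads were matched by the authors to mature miRNAs of miRBase with Bowtie and CLC Genomics Workbench, and the authors deposited raw read counts per mature miRNA. Beside them, the deposited columns named TPM hold RPM of the clean reads, which were used only to recover the clean reads per library. The labels' processing notes name mm9 and CASAVA 1.8 and the study's methods GRCm38, and the counts carry no coordinates. No column was left out.

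Counts were scaled to the sum of each column (19048747 to 26085776 reads). Every pair of libraries differed by more than sampling noise, with a chi-square over its degrees of freedom of 574 or more. For 2 libraries, Fisher's exact test of scipy 1.17.1 (two-sided) set the reads of a miRNA against the remaining miRNA reads, with the FDR by Benjamini-Hochberg over all rows with a read and 0.5 read added for log2 fold changes. Genotypes were compared by the quasi-likelihood test of edgeR 4.0.16 (R 4.3.3) with its filterByExpr and TMM, adjusted over all rows by Benjamini-Hochberg, and DESeq2 1.42.0 was an alternative. The sibling pairs come from the study's methods and not from the labels. Deviations of siblings from the genotype means correlated with r = 0.237 across 252 miRNAs of at least 50 RPM, which are not independent. By the chi-square over its degrees of freedom, the siblings WT2 and APP3 were the closest pair (574). The siblings WT1 and APP4 (909) were further apart than WT1 and APP3 (658) or WT1 and WT2 (874).

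Named were the 12 members with the highest mean, members called in a sibling pair at 10 RPM or more, up to 10 members with both AD mice on one side of both WT mice at a mean of at least 1 RPM, members the study lists, the other arms of these, and lists of the Htr2c introns, miR-1249, miR-1247, miR-1251 and miR-1843. Members and lists were chosen with earlier results of these data known. Alternatives were other library sizes, filters, limits and corrections, the sibling block, DESeq2 and each mouse left out.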

Additional observations from a re-analysis of the deposited data

How the results depend on the processing

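The number of members called over the 4 mice stayed 0 under every alternative tried, with other library sizes, without the filter, with DESeq2, with the sibling pair as a replicate block (0 members, with 2 of all 623 rows called) and with each mouse left out (0 each time). Without one mouse the rest of its genotype is a single library, assumed to vary like the others, and over all rows 3 (without WT1), 0 (without WT2), 21 (without APP3) and 5 (without APP4) were then called. The calls between 2 libraries depended more on the settings. For APP4 against WT1 the 5 members became 2 with TMM, 1 after scaling to 1000000 reads and rounding, 3 with a mean of at least 1 RPM, 2 with a limit of 2-fold and 2 with Bonferroni correction. For APP3 against WT2 the 2 members became 1 with rounding, with the 1 RPM minimum, with 2-fold and with Bonferroni. For WT2 against WT1 the 5 became 3 with TMM, 0 with rounding (which leaves few reads), 2 with 2-fold and 2 with Bonferroni, and for APP4 against APP3 the 4 became 1 with rounding, 2 with 2-fold and 2 with Bonferroni. Over all rows these counts also moved by more than 1.5 times: 104 became 32 with rounding, 50 with 2-fold and 65 with Bonferroni for APP4 against WT1, 61 became 23, 23 and 34 for APP3 against WT2, 89 became 21, 38 and 51 for WT2 against WT1, and 73 became 23, 38 and 47 for APP4 against APP3. TMM and the 1 RPM minimum moved the counts over all rows less, to 85 and 91 from 104, to 62 and 55 from 61, to 77 and 77 from 89, and to 71 and 62 from 73, in the same order of comparisons.

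Without miR-1843b-5p the other members held 0.225% (WT1), 0.208% (WT2), 0.240% (APP3) and 0.209% (APP4) of the miRNA reads. All 70 members held 0.286%, 0.279%, 0.315% and 0.264% of the clean reads in the same order. The members detected were 48 (WT1), 43 (WT2) and 49 (APP4) with at least 3 reads, and 52.5 (WT1) and 52.2 (WT2) were expected at the depth of APP4. The difference of the 3p share of mir-1843b was 5.12 percentage points, and 3.11 with the 5p reads of both hairpins added. The added reads enlarge the total and lower the share in every library, so the 2 differences are not on the same scale. Per 100 reads of both 5p arms, miR-1843b-3p averaged 8.96 reads in the WT mice and 12.8 in the AD mice.

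Alternatives were compared for 22 members, the named ones that edgeR tested and miR-1941-3p, which was added after its values had been seen. Of the 22, 10 kept the sign of their edgeR log2 fold change in all alternatives. Among them were miR-1843b-3p (0.28 to 0.57), miR-1964-3p (0.38 to 0.67) and miR-1943-5p (-0.56 to -0.35). Each of those had both AD mice on one side of both WT mice, a rule of the naming, with and without TMM. Their sign was thereby largely set beforehand, and its keeping is no further support. Without TMM the sign turned for miR-1981-5p (0.025), miR-1843b-5p (0.014), miR-1843a-5p (0.10), miR-1298-5p (0.11), miR-1298-3p (0.10) and miR-1251-5p (0.10, and 0.0075 with DESeq2 size factors, 0.013 without the filter and 0.013 with DESeq2). With each mouse left out, the ranges that crossed 0 were -0.23 to 0.036 (miR-1981-5p), -0.21 to 0.19 (miR-1981-3p), -0.27 to 0.0034 (miR-1843b-5p), -0.15 to 0.13 (miR-1843a-5p), -0.0012 to 0.28 (miR-1843a-3p), -0.20 to 0.19 (miR-1298-5p), -0.091 to 0.053 (miR-1298-3p), -0.53 to 0.37 (miR-1264-5p), -0.65 to 0.49 (miR-1251-5p), -0.99 to 0.0032 (miR-1249-3p), -0.051 to 0.10 (miR-1198-5p) and -0.21 to 0.24 (miR-1198-3p). The cause of these changes was not tested. The design limits the comparison to 2 mice per genotype, and members under 1 RPM to a few reads.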
